A study of Mus musculus with 16 samples.

Results

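The genes described here are 10 genes of the interleukin-6 cytokine system, out of 47311 genes in the tables. They were taken by name: the cytokines Il6, Il11, Lif and Osm, the receptor chains Il6ra, Il6st, Lifr and Osmr, the transcription factor Stat3 and its inhibitor Socs3. All 10 passed the filter on low counts. Their RNA was measured by bulk sequencing of poly(A) RNA in 16 mammary tumours, 8 from mice given an antibody that blocks PD-1, a brake on T cells, and 8 from mice given an IgG2a isotype control. Every mouse was a female C57BL/6J made obese with a diet that drew 60% of its energy from fat, fed from 8 to 26 weeks of age, and every tumour grew from 250000 E0771-luciferase cells, a C57BL/6 mammary cancer line with a luciferase reporter, placed in 25% Matrigel in mammary gland number 4. Antibody was given at 200 ug per mouse from day 3 after the cells, every 3 days, until the mice were killed at day 21. The labels give each tumour its own animal number, so the replicates are separate animals, but all tumours derive from 1 cell line and no lean or untreated mice are among the samples used here.

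Cytokines of the interleukin-6 family signal through a shared receptor chain, gp130, which is the product of Il6st. Each cytokine adds a chain of its own: interleukin-6 binds the receptor encoded by Il6ra, leukaemia inhibitory factor binds gp130 with the Lifr product, and oncostatin M in the mouse binds chiefly gp130 with the Osmr product. Janus kinases bound to these chains phosphorylate STAT3, which enters the nucleus and switches on genes, among them Socs3, whose protein binds gp130 and shuts the signal down. In tumours these cytokines can come from cancer cells, fibroblasts and myeloid cells, and the pathway is known for acute-phase and wound-like gene programmes. The RNA of a signalling gene does not measure phosphorylated STAT3, and none of the values below do.

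The stretches upstream of the start sites of Socs3, Il6 and Lif are shown first, because the mRNA level of Socs3 was correlated across tumours with those of Il6 and Lif. Each line holds the 250 bases before the RefSeq start in the GRCm38.p6 build, 5′ to 3′ on the strand of the gene, and the capitals mark matches to any of 4 binding motifs searched on both strands.
Socs3: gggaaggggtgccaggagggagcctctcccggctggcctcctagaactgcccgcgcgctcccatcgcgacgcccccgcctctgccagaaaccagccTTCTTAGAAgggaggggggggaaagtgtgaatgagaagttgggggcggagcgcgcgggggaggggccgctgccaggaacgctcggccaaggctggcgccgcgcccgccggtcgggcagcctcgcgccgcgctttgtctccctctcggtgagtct
Il6: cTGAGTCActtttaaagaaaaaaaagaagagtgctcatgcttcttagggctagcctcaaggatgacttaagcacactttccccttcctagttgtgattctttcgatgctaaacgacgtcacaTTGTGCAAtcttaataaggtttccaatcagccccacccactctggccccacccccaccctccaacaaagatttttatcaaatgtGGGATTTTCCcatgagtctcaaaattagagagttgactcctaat
Lif: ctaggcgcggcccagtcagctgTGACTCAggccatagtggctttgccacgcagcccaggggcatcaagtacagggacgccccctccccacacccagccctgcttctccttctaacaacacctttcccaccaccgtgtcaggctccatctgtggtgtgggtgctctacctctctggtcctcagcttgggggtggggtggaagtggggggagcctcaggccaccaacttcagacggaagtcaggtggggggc
These windows lie at chr11:117969367-117969616 on the minus strand for Socs3, at chr5:30012864-30013113 on the plus strand for Il6 and at chr11:4257318-4257567 on the plus strand for Lif. The bases that follow the RefSeq start of Socs3 are in no GENCODE vM21 transcript, so its distances to the start depend on the RefSeq model. The capitals in the Socs3 window are a STAT motif, TTCNNNGAA, from -154 to -146 relative to the start, counted with -1 as the last base before it. The Il6 window holds an AP-1 motif, TGANTCA, from -249 to -243, a C/EBP motif, TTGCNNAA on the minus strand, from -128 to -121, and an NF-kB motif, GGGA and TTCC with 2 bases between them, from -44 to -35. The Lif window holds 1 AP-1 motif from -228 to -222, and Il11 has one from -98 to -92. RefSeq gave 11 windows for 9 of the 10 genes, none for Osm, and among these 11 the STAT motif was found in 1, that of Socs3. No matches overlapped. Of 32851 windows of this length, 7.02% held the STAT motif, 6.749% the AP-1 motif, 9.564% the C/EBP motif and 1.208% the NF-kB motif. Such a match is a description of the letters and not a measured binding site.

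Each tumour gave 59036535 to 82591064 estimated reads, and 3 of the 16 stood apart from the others. IgG2a replicate 7 was rich in adipocyte, erythroid, endothelial and macrophage RNA, with a summed adipocyte level of 10526 CPM, or counts scaled to a common library size, against 327 in the next highest tumour. In IgG2a replicate 3 skeletal muscle genes summed to 28491 CPM against 138 in the next highest. Anti-PD-1 replicate 6 had 38993 detected transcripts against 47997 to 55476 in the other tumours, and it was the highest tumour for 4 of 5 keratinocyte genes, which were too low to be tested. Among epithelial markers Krt8 was present at 45.2 CPM or more in every tumour, whereas Krt19 and Krt14 were listed at 0 in at least 1 tumour. Results that rest on the 3 tumours are given with and without them.

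The 10 mRNAs were ordered by CPM per kilobase of each gene's leading transcript. Socs3 averaged 50.5 CPM per kilobase and Stat3 49.0 over the 16 tumours, followed by Il6st at 15.5, Il6ra at 8.96, Osmr at 4.40, Osm at 2.74, Il6 at 2.63, Lifr at 1.53, Lif at 1.01 and Il11 at 0.299. The receptors of interleukin-6 lay above all 4 ligands in mean level per length. Socs3 was above Stat3 in 7 of 16 tumours and Osm above Il6 in 8 of 16, so these neighbours were not ordered by this measure. Lifr was above Lif in only 4 of 16 tumours, its mean being carried by IgG2a replicate 7, and by the median Lif was higher, at 0.970 against 0.584 CPM per kilobase. On this scale Stat3 exceeded Il6st, Il6st exceeded Il6ra and Lif exceeded Il11 in 16 of 16 tumours. The ranges of every neighbouring pair in this order overlapped over the 16 tumours. The order depends on dividing all reads of a gene by the length of 1 transcript. By TPM, the deposited level scaled by transcript length, Stat3 was above Socs3 in every tumour but anti-PD-1 replicate 1 (60.9 against 122). The margin was small in anti-PD-1 replicates 5 (83.7 against 81.3) and 6 (34.7 against 32.9). Short forms weigh heavily in TPM. Stat3-213, a 396-base form annotated as a retained intron, held 1.46% of Stat3 reads but 23.9% of its TPM. The main coding form, Stat3-203, held 92.1% of reads and 61.5% of TPM. The order without the short forms was not tested. By TPM Il6ra was above Il6st in IgG2a replicate 1 (20.5 against 17.0) and anti-PD-1 replicate 3 (18.2 against 15.2). Il6ra was below Il6st in the other tumours. The spread differed between genes. By CPM Stat3 had a coefficient of variation of 10.4% and Il6ra 17.9%, while the ligands ran from 47.6% for Lif to 93.1% for Il6. Lifr reached 230%, and 44.7% over the 13 tumours without the 3 that stood apart.

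**Figure D1:**
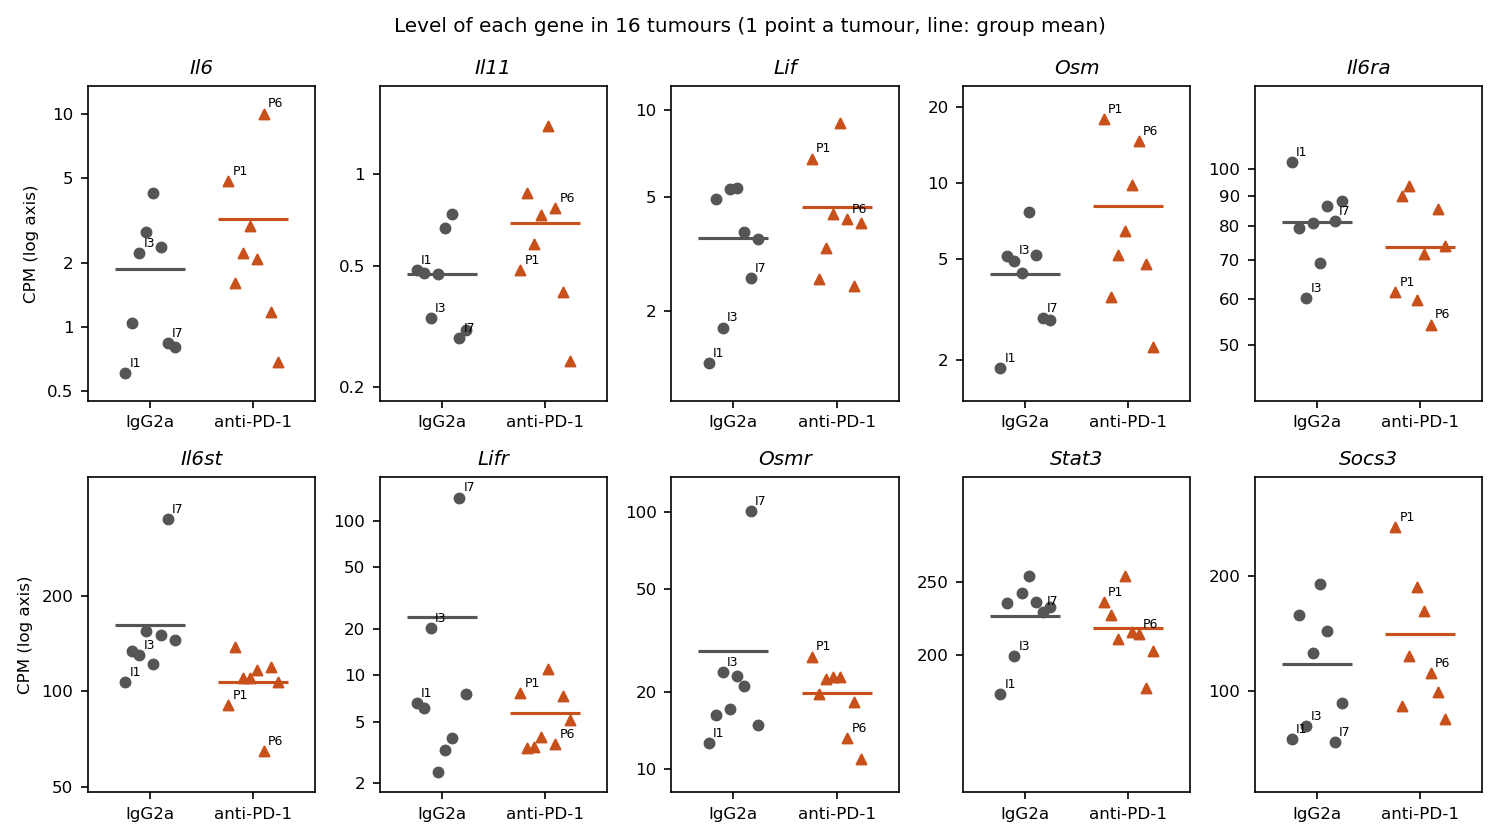
CPM of each gene in each tumour on a log axis, with circles for IgG2a, triangles for anti-PD-1 and a line at each group mean; I1, I3 and I7 are IgG2a replicates 1, 3 and 7, and P1 and P6 are anti-PD-1 replicates 1 and 6. The 2 groups overlap for all 10 genes, and I7 lies far above the other tumours for Il6st, Lifr and Osmr.

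Between anti-PD-1 and IgG2a none of the 10 genes passed the test. By edgeR's quasi-likelihood test with Benjamini-Hochberg adjustment over 16154 genes, 0 members and 0 genes in all were called (0% of genes), and the members' adjusted p ran from 0.434 to 0.785. At an unadjusted p under 0.05, 3 of 10 members passed, against 11.4% of all genes. Osm was the 1 among them with a positive estimate, against 3.47% of all genes, and Il6st and Lifr were the 2 with a negative one, against 7.9%. DESeq2 called 4 of 27933 genes and none of the members, and limma-voom called 0 with or without quality weights. The estimates of all 4 cytokines and Socs3 were above 0, and those of all 4 receptor chains and Stat3 below it, but with limma-voom quality weights Il6, Il11, Lif and Socs3 were below 0 and Lifr above, and without the 3 tumours Lifr and Osmr were above. Fewer cells of a type and less RNA per cell cannot be told apart in such bulk samples.

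Of the ligands, Osm had the lowest p. Oncostatin M is a cytokine made mainly by neutrophils, macrophages and T cells, and its gene lies on the plus strand of chromosome 11 from 4236420 to 4241026. Osm was at 1.86 CPM in the lowest IgG2a tumour, 4.67 at the median and 7.71 in the highest, against 2.24, 5.83 and 18.0 under anti-PD-1. The groups overlapped, 6 of 8 treated tumours lying above the middle of the controls and 3 of 8, replicates 1, 5 and 6, above every IgG2a tumour. The treated mean was 8.09 ± 5.61 CPM and the control mean 4.38 ± 1.83 (SD, n = 8 each), with a log2 fold change of 0.88 ± 0.40 (SE). The unadjusted p by edgeR was 0.0419 and the adjusted p 0.434. The estimate was 0.61 when anti-PD-1 replicate 1 was left out, 0.65 when the 3 outlying tumours were, and 0.04 with limma-voom quality weights, which down-weight tumours that stand apart.

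Il6 encodes the founding cytokine of the family and lies on the plus strand of chromosome 5 from 30013114 to 30019981. It ranged from 0.604 CPM through a median of 1.63 to 4.25 under IgG2a, and from 0.683 through 2.15 to 10.1 under anti-PD-1. The highest tumour, anti-PD-1 replicate 6, was the one with few detected transcripts, and 5 of 8 treated tumours were above the IgG2a median. The log2 fold change was 0.78 ± 0.54 (SE, adjusted p = 0.487 by edgeR), and it was 0.26 without that tumour. These values rest on 41 to 649 reads per tumour.

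Lif encodes leukaemia inhibitory factor and lies downstream of Osm on the same strand, from 4257557 to 4272514. Its levels ran from 1.31 CPM through 3.67 to 5.36 under IgG2a and from 2.45 through 4.11 to 8.99 under anti-PD-1. Treated replicates 1 and 5 exceeded every control and the other 6 lay within the range of the controls. The estimate was 0.36 ± 0.34 (SE, adjusted p = 0.606 by edgeR), and 0.15 without replicate 5. Il11, the cytokine interleukin-11 that acts on stromal and bone marrow cells, was the lowest of the 4 (chromosome 7, minus strand, 4772373 to 4782859). It had 15 to 99 reads per tumour, with medians of 0.474 CPM under IgG2a and 0.663 under anti-PD-1, and 3 treated tumours lay above the highest control at 0.742 CPM. Its estimate was 0.55 ± 0.34 (SE, adjusted p = 0.458 by edgeR), and 0.31 without anti-PD-1 replicate 5.

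Among receptor chains, Il6st, the gene of gp130, had the lowest p. It lies on the plus strand of chromosome 13 from 112464070 to 112510086. Under IgG2a it ran from 107 CPM through a median of 140 to 351, and under anti-PD-1 from 64.8 through 110 to 138. All 8 treated tumours were below the IgG2a median, as was the case for 4.92% of all genes, and replicates 1 and 6 were below every control. The treated mean was 107 ± 21.7 CPM and the control mean 162 ± 78.0 (SD, n = 8 each), and the log2 fold change was -0.60 ± 0.22 (SE). The unadjusted p by edgeR was 0.0146 and the adjusted p 0.434. The estimate was -0.33 without the highest control, IgG2a replicate 7, and -0.27 ± 0.10 (SE) without the 3 tumours (adjusted p = 0.276 by edgeR). In the latter fit the median of all genes moved from -0.05 to 0.02.

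Lifr and Osmr, the partner chains for Lif and Osm, both lie on chromosome 15, Lifr on the plus strand from 7090614 to 7197489 and Osmr on the minus strand from 6813577 to 6874969. Lifr ran from 2.36 CPM through a median of 6.39 to 141 under IgG2a, with replicate 3 next at 20.1, and from 3.36 through 4.55 to 11.03 under anti-PD-1. All treated tumours lay within the range of the controls. The unadjusted p by edgeR was 0.0179. The log2 fold change of -2.07 ± 0.79 (SE, adjusted p = 0.434 by edgeR) became -0.33 without IgG2a replicate 7 and 0.26 ± 0.33 without the 3 tumours. Osmr showed the same dependence. Its highest control, replicate 7 at 100.6 CPM, stood beside 7 controls between 12.6 and 23.9 CPM, and the treated tumours lay between 10.96 and 27.4 CPM. Its estimate was -0.54 ± 0.39 (SE, adjusted p = 0.500 by edgeR) with all tumours and 0.10 ± 0.19 without that control. DESeq2, which replaces outlying counts, gave -0.28 for Lifr and 0.08 for Osmr. In IgG2a replicate 7 macrophage markers summed to 4543 CPM against a median of 1205 over all tumours, endothelial markers to 1404 against 135 and fibroblast markers to 12567 against 2438, with no fibroblast or macrophage marker of that tumour at 0, and their part in the result was not tested.

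Il6ra, the binding chain for interleukin-6 and the one that can be shed as a soluble receptor, lies on the minus strand of chromosome 3 from 89864059 to 89913196. It ran from 60.2 CPM through 81.2 to 103 under IgG2a and from 54.2 through 72.7 to 93.7 under anti-PD-1. The groups overlapped, 3 treated tumours being above the IgG2a median and replicates 4 and 6 below every control. The estimate was -0.14 ± 0.13 (SE, adjusted p = 0.613 by edgeR) and stayed between -0.19 and -0.08 under 27 alternatives.

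Stat3 and Socs3 complete the pathway, both on the minus strand of chromosome 11, Stat3 from 100885098 to 100939540 and Socs3 from 117966079 to 117970047. By CPM Stat3 was the least variable gene, from 177 CPM through 233 to 254 under IgG2a and from 181 through 214 to 255 under anti-PD-1. By TPM it varied more, from 51.8 to 164 under IgG2a and from 34.7 to 124 under anti-PD-1. That scale gives weight to short forms, with 23.9% of Stat3 TPM from Stat3-213, which held 1.46% of reads. Their part in the wider range was not tested. The log2 fold change of Stat3 was -0.05, with a 95% interval of -0.24 to 0.14, and 12041 to 17985 reads per tumour lay behind it. Socs3, the feedback inhibitor, ran from 73.3 CPM through 109 to 191 under IgG2a and from 84.6 through 117 to 267 under anti-PD-1. Treated replicate 1 was the highest tumour, 5 of 8 treated tumours were above the IgG2a median, and none was below every control. The estimate of 0.26 ± 0.26 (SE, adjusted p = 0.633 by edgeR) was 0.06 without that tumour, and its 95% interval with all tumours ran from -0.30 to 0.82.

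**Figure D2:**
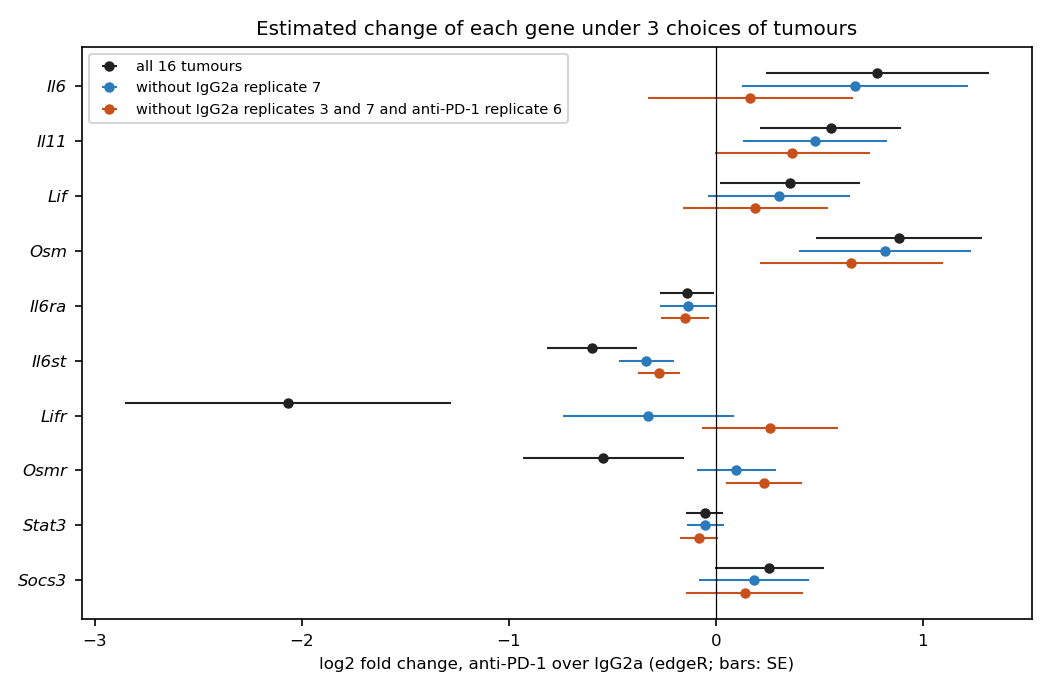
Log2 fold change of anti-PD-1 over IgG2a for each gene, with bars of 1 SE, fitted with all 16 tumours, with 15 after leaving out IgG2a replicate 7, and with the 13 that did not stand apart. The estimates of Lifr and Osmr move from -2.07 and -0.54 to 0.26 and 0.23 when the 3 tumours are left out, while those of Stat3 and Il6ra move by little.

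The other genes of the pathway were followed in lists, and 0 genes of any list passed edgeR's adjusted test. Of all 16154 genes, 6962 had an estimate above 0 and 9192 below it. The Janus kinases, which carry the signal from the receptors, all had estimates below 0 (4 of 4, median -0.27), among them Jak1, the kinase most used by gp130, at -0.24 ± 0.14, Jak2 at -0.20 ± 0.16 and Tyk2 at -0.38 ± 0.19 (SE). The count was 4 of 4 also without the 3 tumours, with a median of -0.18, and the estimate of Jak2 was then -0.0089. Of the other STATs, 5 of 6 were below 0 (median -0.20). Stat5b, a mediator of growth hormone and prolactin signals, averaged 79.2 ± 7.83 CPM in treated and 94.6 ± 9.41 in control tumours (SD, n = 8 each), and 0 of 8 treated tumours were above the IgG2a median. Its estimate was -0.26 ± 0.08 (SE, adjusted p = 0.434 by edgeR), with an unadjusted value of 0.00658. The sheddases Adam10 and Adam17, which can release receptors from the cell surface, were at -0.21 ± 0.14 and -0.10 ± 0.12 (SE).

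Of the other ligands of gp130, 3 of the 6 tested were above 0 with all tumours (median 0.07) and 5 of 6 without the 3 (median 0.16). Ctf1, cardiotrophin-1, was at -0.69 ± 0.26 (SE, adjusted p = 0.434 by edgeR, 0.0157 unadjusted), and 1 of 8 treated tumours exceeded the control median. Clcf1, a ligand of the ciliary neurotrophic factor receptor, was at 0.23 ± 0.18 and Il27, a subunit of interleukin-27, at 0.44 ± 0.30 (SE). Without the 3 tumours Ctf1 stood at -0.40 and Clcf1 at 0.04. All 4 other receptors of the family had estimates below 0, but IgG2a replicate 7 was the highest tumour for each of them. Cntfr, a receptor of ciliary neurotrophic factor, reached 10.7 CPM in that tumour against a median of 0.148, and its estimate of -2.46 was -0.20 without it. Without the 3 tumours, Il11ra1, the interleukin-11 receptor, stood at 0.64 instead of -0.18 and Il27ra at 0.24 instead of -0.42.

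Of 15 inhibitors of the pathway, 11 had estimates below 0 (median -0.06). Socs7, of the same protein family as Socs3, was at -0.33 ± 0.15, 0 of 8 treated tumours exceeding the control median, and Ptpn11, the phosphatase SHP2 that binds gp130, at -0.25 ± 0.11, also with 0 of 8 (SE). Ptpn2, a phosphatase of Janus kinases and STATs, was at 0.43 ± 0.19, and 8 of 8 treated tumours exceeded that median, as was the case for 4.74% of all genes. Their unadjusted p values by edgeR were 0.0471, 0.0403 and 0.0367, with an adjusted p of 0.434 for each. Socs1, a close relative of Socs3, was at 0.37 ± 0.23 (SE). Ptpn2 was at 0.26 without anti-PD-1 replicate 6 and Socs1 at 0.24 without IgG2a replicate 7.

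Textbook targets of STAT3 gave 14 of 27 estimates above 0 with all tumours (median 0.03) and 22 of 27 without the 3 (median 0.18, against 0.02 over all genes in that fit). The share of all genes above 0 in that fit was not counted. In it most marker lists were mainly above 0 too. The counts were 7 of 7 for endothelial and for skeletal muscle markers, 7 of 8 adipocyte and 6 of 8 fibroblast. They were 6 of 7 each for neutrophil, macrophage and T cell markers, 5 of 7 mammary epithelial and 2 of 5 erythroid. Among pathway lists they were 5 of 6 other ligands, 2 of 3 other receptors and 5 of 15 inhibitors. The Janus kinases gave 0 of 4, the other STATs 0 of 6 and the sheddases 0 of 2. Saa3, a serum amyloid A of the acute-phase response, averaged 45.6 ± 47.2 CPM in treated and 13.4 ± 8.41 in control tumours (SD, n = 8 each). Saa3 was at 1.77 ± 0.59 (SE, adjusted p = 0.434 by edgeR, 0.00832 unadjusted) and at 1.58 without the 3 tumours. It was 1.24 without anti-PD-1 replicate 6, its highest tumour at 143 CPM, and 0.70 with limma-voom quality weights. Lcn2, lipocalin-2, a neutrophil and epithelial product, was at 0.87 ± 0.64 and Timp1, a protease inhibitor, at 0.38 ± 0.31. Pim1, a kinase gene, was at 0.17 ± 0.20 and Bcl3, an NF-kB cofactor, at 0.32 ± 0.18 (SE). Without anti-PD-1 replicate 1 Lcn2 was at 0.30, Pim1 at 0.015 and Bcl3 at 0.20, and without anti-PD-1 replicate 6 Timp1 was at 0.13. With limma-voom quality weights Lcn2 and Pim1 were below 0, at -0.10 and -0.20. Cebpd, a transcription factor of the acute-phase response, had an estimate near 0 whose sign differed between settings. The liver-type acute-phase genes Lbp and Lrg1 had estimates of -3.09 and -2.77. IgG2a replicate 7 was their highest tumour, where Lbp reached 84.4 CPM against a median of 1.27. Without that tumour alone the estimates stood at -1.25 for Lbp and -0.30 for Lrg1, and without the 3 tumours at 0.81 and 0.37.

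Levels of several members were correlated across tumours. Over 45 pairs, Spearman's rho of log2 CPM passed a permutation test adjusted over the pairs in 9 cases, 7 positive and 2 negative. All 7 positive pairs were among Il6, Lif, Osm, Stat3 and Socs3, which form 10 pairs. The other 3 did not pass: rho was 0.53 for Il6 and Lif (adjusted permutation p = 0.130), 0.54 for Il6 and Stat3 (0.130) and 0.43 for Osm and Stat3 (0.242). Il6 and Osm had a rho of 0.85 (permutation p = 1e-04, adjusted p = 0.00292) and an r of 0.88 (p = 3e-05, adjusted p = 0.00135). Lif and Socs3 had a rho of 0.84 (permutation p = 1.3e-04, adjusted p = 0.00292) and an r of 0.78 (p = 4e-04, adjusted p = 0.00825). Osm and Socs3 had a rho of 0.81 (permutation p = 3.3e-04, adjusted p = 0.00495) and an r of 0.76 (p = 5.5e-04, adjusted p = 0.00825). Leaving out the 2 tumours farthest from the median gave an r of 0.81, 0.79 and 0.83 in turn.

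These relations were present in both treatment groups. Within IgG2a rho was 0.83 for Il6 and Osm, 0.86 for Lif and Socs3 and 0.81 for Osm and Socs3. Within anti-PD-1 it was 0.88, 0.71 and 0.83 in the same order. At the low end, IgG2a replicate 1 had the lowest level of Il6, Lif, Osm and Stat3 of all 16 tumours and the highest of Il6ra, and at the high end anti-PD-1 replicate 1 had the highest Osm and Socs3.

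The weaker positive pairs were Stat3 with Socs3 at a rho of 0.70, Lif with Stat3 at 0.69, Il6 with Socs3 at 0.67 and Lif with Osm at 0.66. Their r values were 0.62, 0.63, 0.61 and 0.65, and 0.58, 0.64, 0.75 and 0.49 without the 2 farthest tumours. By r, 5 of the 45 pairs passed, and these weaker positive pairs did not. Their adjusted permutation p of r was 0.0566, 0.0566, 0.0675 and 0.0501. Il6ra went the other way, with a rho of -0.64 to both Il6 and Osm, an r of -0.70 and -0.71, and an r of -0.49 and -0.54 without the 2 farthest. Adjusted permutation p for the rho of these 6 pairs lay between 0.0375 and 0.0482, and each of them missed the threshold under some alternative. On log2(TPM + 1) none of the pairs of Stat3 with Il6, Lif, Osm and Socs3 passed. On that scale Stat3 passed with Il6st, at a rho of 0.79 (adjusted permutation p = 0.00690), and with Il6ra, at 0.70 (0.0355), against 0.34 and -0.32 on log2 CPM. The TPM of Stat3 includes short forms, 23.9% of it from Stat3-213 with 1.46% of reads, and their part was not tested. On log2 CPM, without any 1 of IgG2a replicates 1, 5, 7 and 8 or anti-PD-1 replicates 1, 4 and 7, the count of pairs past the threshold was 3 to 5.

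Without the 3 tumours that stood apart, 12 pairs passed. Osmr then passed with Osm, Il6 and Socs3: its rho was 0.92 with Osm, 0.89 with Il6 and 0.84 with Socs3, against 0.46, 0.43 and 0.30 over all 16. With the other ligands Osmr did not pass, at 0.53 with Lif (adjusted permutation p = 0.139) and 0.62 with Il11 (0.0830). Il6ra had a rho of -0.81 with Lif and -0.77 with Socs3. Il6st and Lifr were in no passing pair. Over 16 tumours Lifr and Osmr had an r of 0.76 and a rho of 0.31, and the r was -0.01 without IgG2a replicates 3 and 7, so that relation rested on those tumours.

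**Figure D3:**
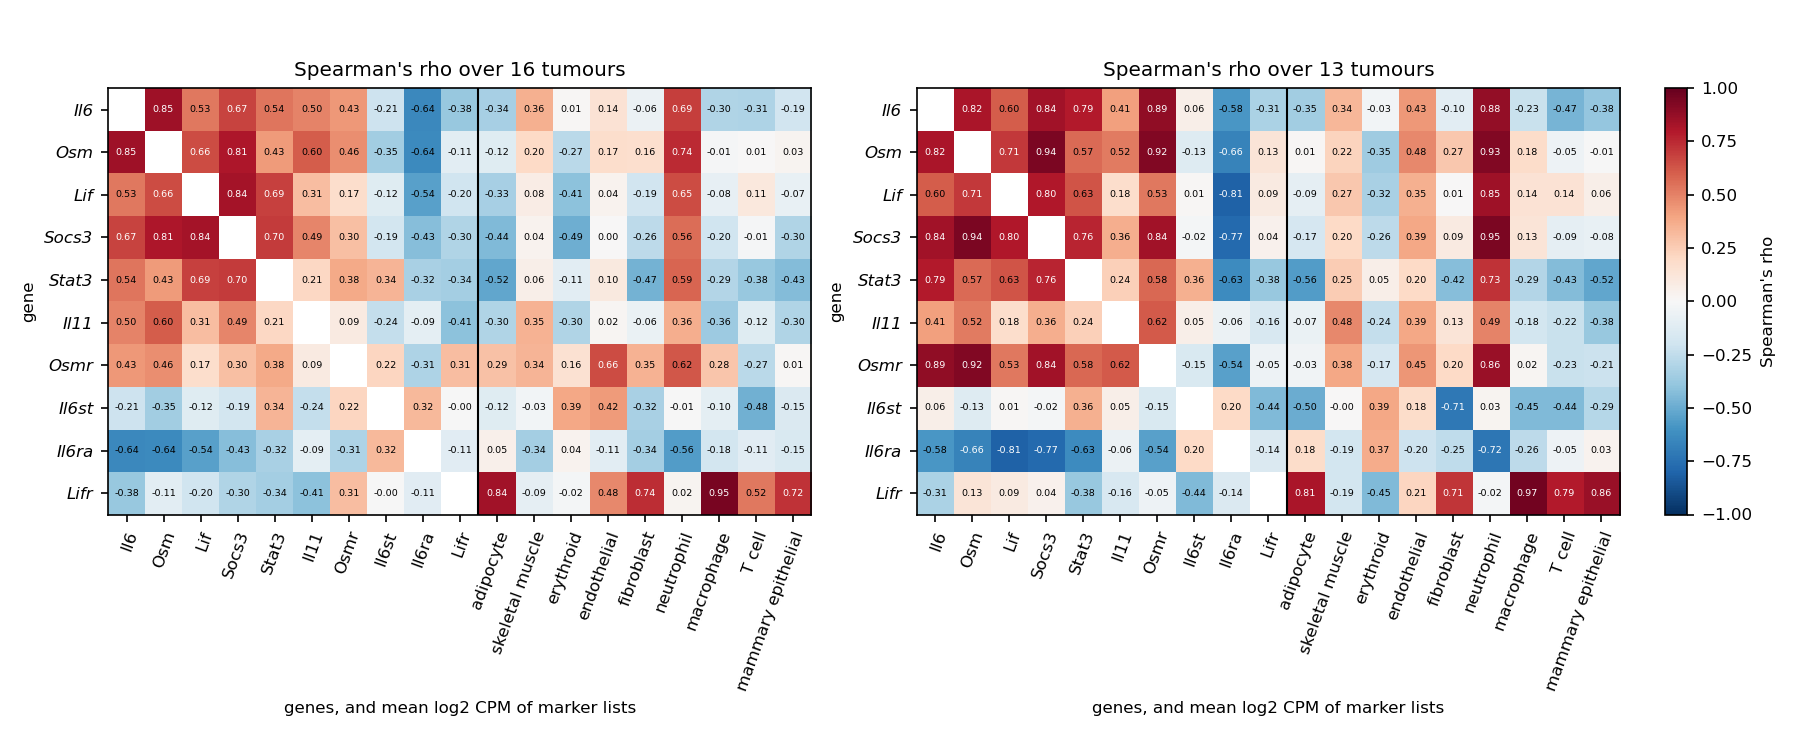
Spearman's rho between the 10 genes, left of the black line in each panel, and between each gene and the mean log2 CPM of 9 marker lists, right of it, over 16 tumours and over the 13 that did not stand apart. Il6, Osm, Lif, Socs3 and Stat3 form a block of positive values that also covers the neutrophil column, and Lifr is high with macrophage markers, at 0.95 and 0.97.

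Markers of other cells moved with these genes. Of 90 relations between the 10 genes and 9 marker lists, 5 passed a permutation test adjusted over the 90 by rho. Lifr accounted for 4 of them. Its rho with macrophage markers was 0.95 (permutation p = 1e-05, the smallest that can be given, adjusted p = 9e-04), its r 0.94 (p = 1e-05, adjusted p = 4.5e-04), and its r without the 2 farthest tumours 0.81. With adipocyte markers its rho was 0.84 and its r 0.94, with fibroblast markers 0.74 and 0.87, and with mammary epithelial markers 0.72 and 0.78, the adjusted permutation p of rho being 0.0063, 0.0351 and 0.0454. By r alone, endothelial markers passed with Osmr, at 0.90 (adjusted permutation p = 0.00936), and with Lifr, at 0.89 (0.0188). Without the 2 farthest tumours these r were 0.58 and 0.48. Over the 13 tumours the rho of Lifr was 0.97 with macrophage, 0.81 with adipocyte and 0.86 with mammary epithelial markers. With T cell markers it was 0.79 (adjusted permutation p = 0.0223), against 0.52 over all 16. With fibroblast markers it was 0.71 and missed the threshold (adjusted permutation p = 0.0556).

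The fifth relation was between Osm and neutrophil markers, with a rho of 0.74 (permutation p = 0.00141, adjusted p = 0.0351), an r of 0.79 (p = 2.6e-04, adjusted p = 0.00585) and an r of 0.60 without the 2 farthest tumours. The neutrophil list holds S100a8, S100a9, Cxcr2, Csf3r, Retnlg, Ly6g and Mmp8, all 7 tested, with estimates above 0 in 7 of 7 with all tumours and 6 of 7 without the 3, and 0 called. Without anti-PD-1 replicate 1 the estimates of Csf3r and Retnlg were -0.04 and -0.75, and with limma-voom quality weights S100a9, Csf3r, Retnlg and Ly6g were below 0. Its summed level was 29.4 to 115 CPM under IgG2a and 41.9 to 317 under anti-PD-1, highest in anti-PD-1 replicate 1, and Retnlg was at 0 in at least 1 tumour. Il6 had a rho of 0.69 with these markers (adjusted permutation p = 0.0561), Lif 0.65 (0.0820), Osmr 0.62 (0.124), Stat3 0.59 (0.177) and Socs3 0.56 (0.208). By r, Il6 passed at 0.70 (adjusted permutation p = 0.0298), Lif at 0.68 (0.0357), Stat3 at 0.65 (0.0467) and Socs3 at 0.69 (0.0235). Osmr, at an r of 0.51 (0.236), did not. Without the 2 farthest tumours the r was 0.60 for Il6, 0.39 for Lif, 0.51 for Stat3 and 0.46 for Socs3.

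Over the 13 tumours 9 relations passed, and 5 of them were with neutrophil markers. There rho was 0.95 for Socs3 (adjusted permutation p = 4.5e-04), 0.93 for Osm (0.00120), 0.88 for Il6 (0.00517), 0.86 for Osmr (0.00600) and 0.85 for Lif (0.00733). IgG2a replicate 7 went against this order, with the second highest mean of neutrophil markers, 3.34 log2 CPM, and the lowest Socs3, 73.3 CPM. The highest and lowest tumours for these markers, anti-PD-1 replicate 1 and IgG2a replicate 1, were both among the 13. The part of neutrophil RNA in the co-variation of the members was not tested.

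**Figure D4:**
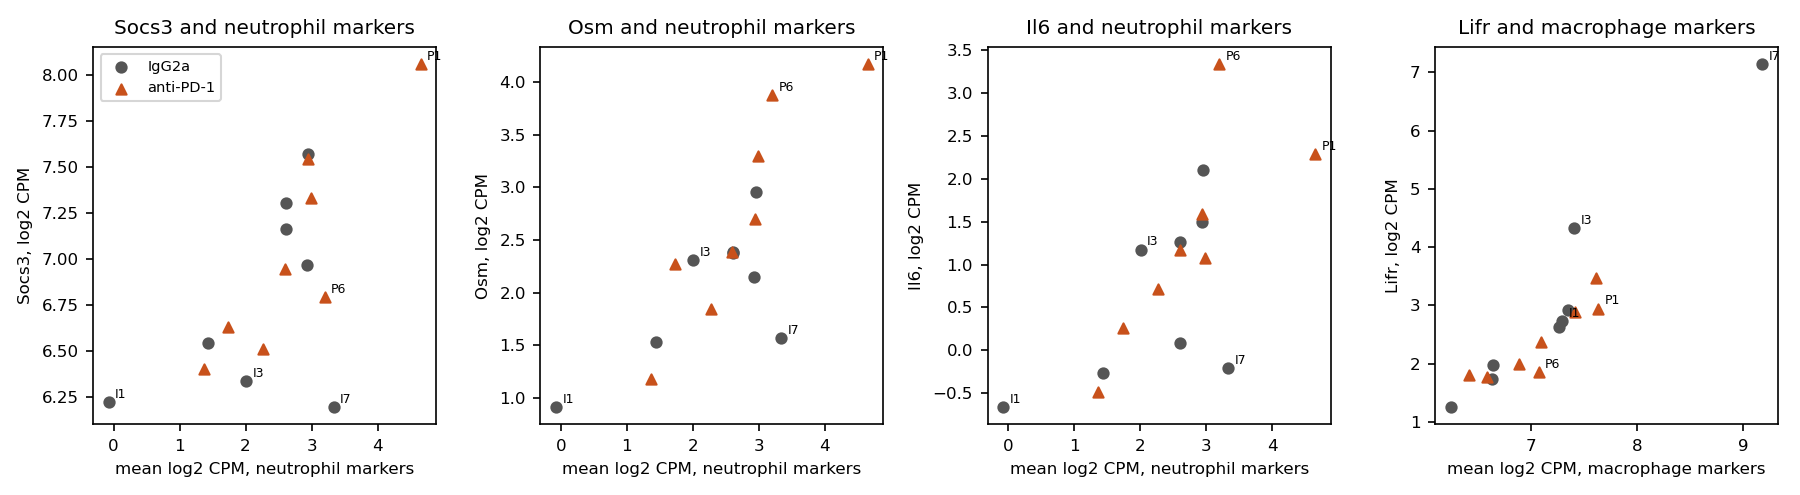
Log2 CPM of Socs3, Osm and Il6 against the mean log2 CPM of neutrophil markers, and of Lifr against that of macrophage markers, 1 point a tumour, with labels as in the plot of levels. I7 has the second highest neutrophil markers and the lowest Socs3, 73.3 CPM, and the Lifr panel has a rho of 0.95.

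The genes closest to each member were taken as the 3 of highest rho among 11563 genes whose log2 CPM averaged 1 or more, over the 16 tumours, as a description. For Il6 they were Il1r2, a decoy receptor for interleukin-1, at 0.89, Slpi at 0.85 and Ptgr1 at 0.84. For Osm they were Bcl3 at 0.90, and Il1f9 and Wdyhv1 both at 0.88. Lif was closest to Ptgs2, which encodes cyclooxygenase-2, at 0.87, Procr at 0.86 and Samsn1 at 0.83. Socs3 was closest to Nfkbiz, an NF-kB regulator, at 0.92, Zc3h12a, an RNase that degrades inflammatory mRNAs, at 0.92 and Nos2 at 0.91. Stat3 was closest to Gcnt2 at 0.92, Sbno2 at 0.90 and Cpd at 0.90.

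The receptors had other neighbours. Lifr was closest to Rnf150, Rasgrp4 and Cd81, all at 0.96. Il6st was closest to Bace1 at 0.96, Ccser2 at 0.95 and Ube4a at 0.93, and Osmr to Kcnj2 at 0.93 and Lama4 at 0.86. Il6ra had Slc44a3 at 0.83 and Cep95 and Glis2 both at 0.82, and Il11 had C1qtnf6 at 0.79, Tmem9 at 0.74 and Plekhf1 at 0.71. Bcl3 is on the list of textbook STAT3 targets. Over the 13 tumours 10 of these genes were still within the first 3 places, Bcl3 for Osm with a rho of 0.96, Nfkbiz for Socs3 with 0.96, Ptgs2 for Lif with 0.91, Il1r2 for Il6 with 0.90, Gcnt2 and Sbno2 for Stat3, Rasgrp4 and Cd81 for Lifr, Bace1 for Il6st and Kcnj2 for Osmr.

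Transcript forms were read from the same tables, as shares of a gene's reads. A single transcript held most reads of Il11 (100%), Socs3 (99.9%), Osm (99.7%), Osmr (96.1%), Stat3 (92.1%) and Lifr (89.4%), whereas Il6st, Il6ra, Lif and Il6 were split. Only 3 of 8 annotated transcripts of Lifr and 2 of 3 of Il11 were quantified, so their shares are over those forms. For Il6st, Il6st-203 and Il6st-201 have the same 2751 coding bases and differ in the untranslated regions, with 5644 and 2418 bases after the stop codon. Il6st-201 took 20.7% of reads in the lowest IgG2a tumour, 30.8% at the median and 59.6% in the highest, against 0%, 15.3% and 28.8% under anti-PD-1. The groups overlapped, with 5 of 8 treated tumours below every control. The control mean was 33.1 ± 12.2% and the treated mean 14.7 ± 10.1% (SD, n = 8 each).

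The difference in Il6st-201 usage did not pass. Its adjusted p was 1 by edgeR's transcript usage test (unadjusted 0.0190) and 0.0983 by limma's (unadjusted 0.00142), and its unadjusted p by edgeR was 0.124 without the 3 tumours. In all, edgeR's usage test called 11 of 32938 transcripts (0.0334%) and none of the members' 23 tested transcripts, of which 2, Il6st-201 and the minor form Stat3-212, named after its value was seen, were below an unadjusted p of 0.05, against 2.99% of all. Limma's usage test called 243 (0.738%), again none of the members'. A share listed at 0 by such an estimate can mean that shared reads were assigned to the other form.

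Il6ra was split between Il6ra-202, with 7105 bases after the stop codon, and Il6ra-201, with 1840. The shorter form held 34.3 ± 10.1% of reads under IgG2a and 23.8 ± 14.2% under anti-PD-1 (SD, n = 8 each), with an edgeR usage p of 0.314 before and 1 after adjustment. Its lowest share, 0.0789%, was in anti-PD-1 replicate 6, the tumour with few detected transcripts, and its highest was 46.4% in IgG2a replicate 8. For Lif, the form Lif-202, with a first exon upstream of that of Lif-201, took 100% in 6 tumours, 0% in IgG2a replicate 1 and anti-PD-1 replicate 6, and 27.5 to 99.7% in the others. The control mean was 74.8 ± 39.6% and the treated mean 68.3 ± 39.7% (SD, n = 8 each), and both groups ran from 0 to 100%. Il6 divided among Il6-204 with a mean of 61.5%, Il6-201 with 23.1% and Il6-203 with 13.3%.

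**Figure D5:**
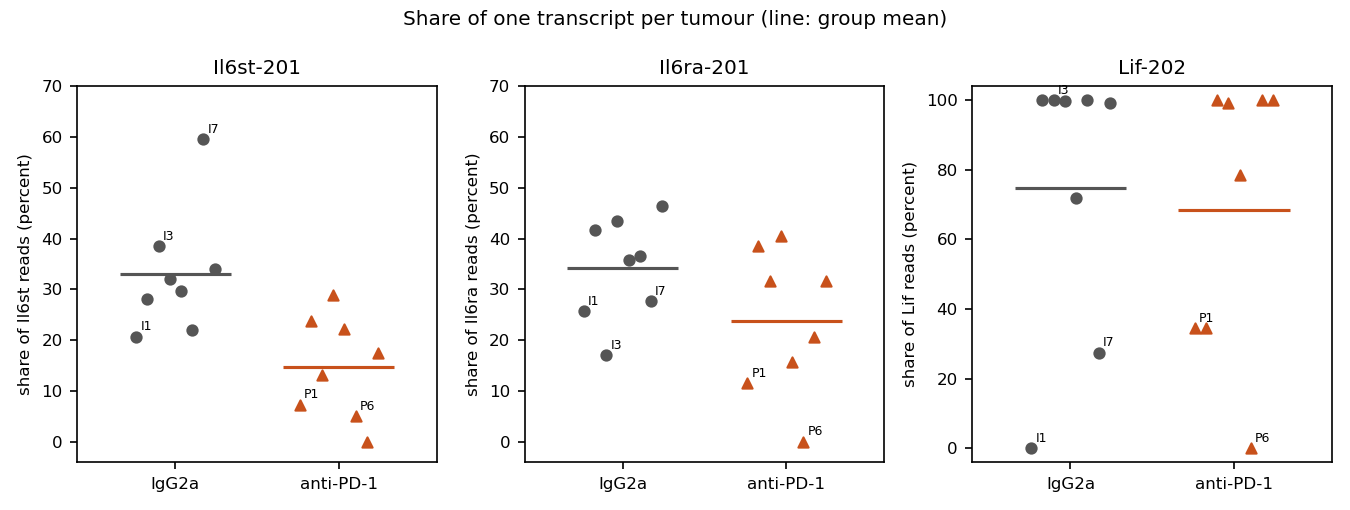
Percent of a gene's reads given to Il6st-201, Il6ra-201 and Lif-202 in each tumour, with circles for IgG2a, triangles for anti-PD-1, a line at each group mean and labels as in the plot of levels. Il6st-201 is at 20.7% or more in every IgG2a tumour and at or under 28.8% in every anti-PD-1 tumour, and Lif-202 runs from 0 to 100% in both groups.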

How the data were processed

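Tables of 16 tumours were used. Per the file headers, the deposited values are estimated counts per transcript, with TPM in the same tables. Per the labels' protocols, RNA of integrity number over 5 went into a non-directional library kit, so antisense reads cannot be told apart. The submitters' processing notes name GRCm38, edgeR and limma. The quantifier is not given in the sources used here. Of 115088 transcripts, 114200 matched GENCODE vM21, and 0.167 to 0.217% of reads were unmatched and left out. Between 25.4 and 38.6% of transcripts had values that were not whole, so reads shared by forms of a gene had been divided.

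Estimated counts were summed per gene, rounded, filtered with filterByExpr (minimum count 10), scaled by TMM and passed to the robust quasi-likelihood test of edgeR 4.0.16 (R 4.3.3, adjusted p threshold 0.05). Transcript usage was tested with edgeR and limma 3.58.1. Correlations used log2 CPM (prior count 2) and 100000 permutations, two-sided. Marker scores are means of log2 CPM. The members and lists were chosen with earlier results of these data known. Named genes were the members, from each pathway list the 3 of smallest unadjusted p and others chosen whatever their value (Saa3, Lcn2, Timp1, Pim1, Cebpd, Bcl3, Jak1, Jak2, Socs1, Il11ra1, Adam17), and the 3 of highest rho per member. Some of these genes are not reported here. Alternatives were other scalings and filters, DESeq2 1.42.0, limma-voom, a covariate for animal number range, and leaving out tumours. On simulated counts of 16154 genes for this comparison, the gene test recovered 10% of 50 genes changed 1.5-fold, 38% at 2-fold, 64% at 4-fold and 86% at 8-fold, with 1 false call. The edgeR usage test on 30280 simulated transcripts recovered 8 of 100 genes changed 4-fold and 69 of 100 changed 16-fold, and called 50 transcripts in other genes. On the same counts limma's usage test recovered 43 of 100 and 80 of 100, and called 65 transcripts in other genes. Sequences are from RefSeq, GRCm38.p6.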

Additional observations from a re-analysis of the deposited data

Results flagged for a closer look

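In each of 20 groups of 8 tumours for the gene levels and 20 for the transcript shares, the tumour at either end was compared with its neighbour. Chance gives a tumour far from the others in about 1 in 20 groups if values are independent and normally spread, which CPM and shares need not be. On the CPM scale 4 groups held such a tumour. IgG2a replicate 7 was far above the other controls for Lifr, at 141 CPM, for Il6st, at 351 CPM, and for Osmr, at 100.6 CPM, and anti-PD-1 replicate 6 was far above the other treated tumours for Il6, at 10.1 CPM. On the log2 CPM scale 2 groups did, those of Il6st and Osmr. Among the shares 3 groups did. IgG2a replicate 7 stood apart for the forms of Il6st, with 59.6% of reads given to Il6st-201 and 39.8% to Il6st-203. Those shares divide the same reads, so these groups are not independent. IgG2a replicate 1, the tumour with the lowest Il6, stood apart for Il6-203, at 66.9% of the Il6 reads.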

How the results depend on the processing

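No member was called under any of the 27 alternatives to the gene test (26 for Il11, which a minimum count of 50 removed). Every alternative with edgeR or limma called 0 genes, and DESeq2 called 4. Il6ra, Il6st, Osm and Stat3 kept their sign throughout, but Osm was at 0.04 with limma-voom quality weights against 0.88. With limma-voom quality weights the log2 estimate was -0.089 for Il6, -0.060 for Il11, -0.063 for Lif, 0.10 for Lifr, -0.18 for Socs3, 0.024 for Cntfr, 0.50 for Il11ra1, 0.23 for Il27ra, 0.66 for Lbp, -0.10 for Lcn2, 0.0094 for Lrg1 and -0.20 for Pim1. Without the 3 tumours it was 0.26 for Lifr, 0.23 for Osmr, 0.048 for Cebpd, 0.64 for Il11ra1, 0.24 for Il27ra, 0.81 for Lbp and 0.37 for Lrg1. DESeq2 gave 0.085 for Osmr, and limma-voom 0.15 for Il11ra1. Cebpd was 0.0014 with TMMwsp scaling, 0.020 with upper-quartile scaling and 0.0083 with no filter. Leaving out 1 tumour at a time gave -0.65 to 0.10 for Osmr, -0.21 to 0.16 for Cebpd, -0.39 to 0.42 for Il11ra1 and -0.55 to 0.082 for Il27ra. The cause was not tested beyond the tumours left out.

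Transcripts called for usage were 243 by limma, 0 among transcripts with a mean share of at least 5%, 124 without the 3 tumours and 9 to 94 without 1 tumour, 94 without IgG2a replicate 3 and 21 to 27 without IgG2a replicate 7 or anti-PD-1 replicate 2, 3 or 4. None was of a member. Pairs of members past the threshold were 4 with log2(TPM + 1), of which Il6st with Stat3 and Il6ra with Stat3 were not among the 9, and 3 to 9 without 1 tumour, an alternative chosen after seeing the data. Il6 with Osm and Lif with Socs3 passed in all 20 alternatives, and Osm with Socs3 in 19. Relations with marker lists past the threshold were 9 without the 3 tumours. No paired analysis was possible because the tumours are from separate animals, and the replicate numbers used here follow accession order and pair no animals. Il11, at 15 to 99 reads per tumour, is the member whose depth limits it most.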
